A study of Mus musculus with 6 samples.

Results

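The globin genes described here are 3 embryonic globins, Hbb-y, Hbb-bh1 and Hba-x, and the adult beta globin Hbb-b2. Their probe sets are those that the platform annotation assigns to 1 of these 4 symbols alone, which gave 9 of the 22626 probe sets that are not controls. Hbb-y and Hbb-bh1 had 3 probe sets each, Hbb-b2 had 2 and Hba-x had 1. The cells were erythroblasts carrying CD71 that had been taken from mouse bone marrow, and each sample was run on an Affymetrix array. The mutant group, with 3 arrays, expressed a transgene for RPS19 with the change R62W, and the other 3 arrays were wild type. Both groups were of the FVB/N strain. RPS19 belongs to the small subunit of the ribosome and is often mutated in Diamond-Blackfan anaemia, which the series is about. The labels name neither the age of the mice nor the promoter of the transgene, and they do not say if each sample was another animal. The p-values therefore reflect how far these samples varied, and that variation may be technical.

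Haemoglobin is a tetramer of alpha-type and beta-type globin chains, each holding a haem group. The mouse beta-type genes lie together on chromosome 7 and the alpha-type genes on chromosome 11. The first erythroblasts of the embryo, which arise in the yolk sac, use Hbb-y and Hbb-bh1 as beta-type genes and Hba-x as an alpha-type gene. Erythroblasts of the foetal liver and of adult marrow use the adult genes, and factors such as Bcl11a and Zbtb7a keep the embryonic genes silent in them. Hbb-b2, known as beta minor, is the less abundant of the adult beta globin genes in mouse strains that carry it. Because CD71, the transferrin receptor, is carried by dividing erythroblasts in general, the sort does not by itself separate embryonic-type from adult-type cells.

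Upstream sequences are shown because the 2 embryonic genes with an entry in the promoter table, Hbb-y and Hba-x, were both highest on the same array. The 250 bases before the RefSeq start of each gene in GRCm38.p6 are given 5′ to 3′ on the gene's own strand, together with those of the adult genes Hbb-bs and Hba-a1. The reference is C57BL/6J and not FVB/N. Capitals mark the CACCC box, its longer form spelled CTCCACCC, the box spelled CCAAT, the GATAA core of GATA factor sites and the TATA-like strings spelled TATAA or else ATAAA, each searched on both strands. The regions are chr7:103853208-103853457 (minus strand) for Hbb-y, chr11:32276350-32276599 (plus strand) for Hba-x, chr7:103827929-103828178 (minus strand) for Hbb-bs and chr11:32283422-32283671 (plus strand) for Hba-a1.
Hbb-y: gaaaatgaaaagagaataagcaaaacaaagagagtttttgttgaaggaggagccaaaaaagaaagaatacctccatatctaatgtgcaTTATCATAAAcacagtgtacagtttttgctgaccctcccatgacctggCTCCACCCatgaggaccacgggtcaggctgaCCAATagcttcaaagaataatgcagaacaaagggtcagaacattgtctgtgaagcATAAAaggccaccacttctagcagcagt
Hba-x: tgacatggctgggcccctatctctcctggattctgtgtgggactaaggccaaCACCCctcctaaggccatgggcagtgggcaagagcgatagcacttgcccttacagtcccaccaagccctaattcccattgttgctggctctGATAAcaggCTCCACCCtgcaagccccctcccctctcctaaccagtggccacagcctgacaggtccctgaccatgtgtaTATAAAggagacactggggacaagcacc
Hbb-bs: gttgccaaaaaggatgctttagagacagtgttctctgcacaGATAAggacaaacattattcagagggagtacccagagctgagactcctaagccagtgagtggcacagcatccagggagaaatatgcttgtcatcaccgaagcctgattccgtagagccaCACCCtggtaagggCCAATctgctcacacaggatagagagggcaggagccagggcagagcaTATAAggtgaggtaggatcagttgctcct
Hba-a1: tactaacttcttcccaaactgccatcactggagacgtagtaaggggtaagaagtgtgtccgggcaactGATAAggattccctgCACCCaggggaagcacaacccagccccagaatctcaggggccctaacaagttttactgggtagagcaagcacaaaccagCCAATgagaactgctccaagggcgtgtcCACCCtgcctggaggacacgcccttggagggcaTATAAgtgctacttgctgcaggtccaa

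Each of the 4 windows held a CACCC, the core of the box bound by Klf1 in adult beta globin genes, and a GATAA, the core bound by Gata1. The first base before the start is counted as position -1. The longer string CTCCACCC, which was picked after these windows had been read, began at position -114 in Hbb-y and at position -98 in Hba-x and was not found in the windows of Hbb-bs and Hba-a1. Among 32851 promoter windows of the same length, 4.19% held CTCCACCC, against 52.0% for CACCC and 22.6% for GATAA. The CCAAT box began at position -83 in Hbb-y, -76 in Hbb-bs and -88 in Hba-a1, was not found in Hba-x and was held by 33.8% of all windows. CACCC lies inside CTCCACCC, and in Hba-x TATAA (22.8% of all windows) and ATAAA (37.3%) overlap. These strings are descriptions of the sequence and were not tested as binding sites.

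The arrays of the mutant group were less alike than those of the wild type group. The SD over genes of the log2 difference between 2 arrays was 0.34 to 0.51 within the mutant group and 0.14 to 0.18 within the wild type group. Polyadenylated spike controls are added to the RNA before labelling. They averaged 12.83 ± 1.08 on mutant arrays and 8.75 ± 0.016 on wild type arrays (mean log2 level, SD, n = 3 each, two-sided exact permutation p = 0.1, the smallest that 3 arrays against 3 allow). On mutant replicates 1, 2 and 3 these spikes read 11.58, 13.43 and 13.47, so mutant replicate 1 lay below the other mutant arrays. The 3′ minus 5′ value of the Gapdh controls averaged 0.27 ± 0.032 on mutant arrays and -0.066 ± 0.019 on wild type arrays (log2, SD, n = 3 each, exact permutation p = 0.1). The same value for the actin controls averaged 1.70 ± 0.16 on mutant arrays and 1.31 ± 0.054 on wild type arrays (exact permutation p = 0.1). For the transferrin receptor controls it averaged 1.75 ± 0.13 on mutant arrays and 1.72 ± 0.055 on wild type arrays (exact permutation p = 0.8). Hybridization spike controls averaged 10.47 ± 0.22 on mutant arrays and 9.36 ± 0.066 on wild type arrays (mean log2 level, SD, exact permutation p = 0.1). The part of these differences in the globin values was not tested. Mutant replicate 1 read apart from mutant replicates 2 and 3 for most globin probe sets, so results are given with it and without it. Since these values singled it out, p-values of globin probe sets in the fit without it are only descriptive. In the sample descriptions its code begins with another letter than the codes of mutant replicates 2 and 3, and the descriptions do not say what these codes stand for. What the code marks and mutant replicate 1 cannot be told apart.

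Hbb-y, the embryonic epsilon-type chain gene, had the widest spread between the mutant arrays of any of 12393 genes, with each gene represented by its brightest probe set. Its brightest probe set read 10.86, 3.16 and 3.24 on mutant replicates 1, 2 and 3, against 6.42, 6.26 and 6.39 on wild type replicates 1, 2 and 3 (log2 RMA values, as are all levels below). Thus 1 mutant array lay far above all wild type arrays and the other 2 lay far below them, with the wild type arrays together in between. Of all probe sets, 4.56% had mutant replicate 1 above, and mutant replicates 2 and 3 below, every wild type array. Relative to the wild type mean, the reading was 22.7-fold higher on mutant replicate 1, 9.18-fold lower on mutant replicate 2 and 8.66-fold lower on mutant replicate 3. The last 2 levels, 3.16 and 3.24, lie below 3.92, the median of tissue-restricted genes not typical of marrow, given below. The last 2 folds are therefore folds of the reading and do not measure how far the transcript itself was lower. A level at least 2-fold below the wild type mean was read for 0.725% of all probe sets on mutant replicate 2 and for 1.25% on mutant replicate 3.

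The other Hbb-y probe sets placed the mutant arrays on the same sides of the wild type arrays. The second read 10.71, 2.74 and 2.82 on the mutant arrays, against 6.21, 6.07 and 6.06 on the wild type arrays. The third read 7.55, 3.02 and 3.12 on the mutant arrays, against 3.71, 3.71 and 3.96 on the wild type arrays. In all 3 probe sets the highest array was mutant replicate 1 and the lowest were mutant replicates 2 and 3. By the platform's naming, the suffix x marks probe sets with some probes that also match other transcripts, which applies to the 2 brighter ones and not to the third.

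On each array the Hbb-y level can be placed among all probe sets. The brightest Hbb-y probe set stood at percentile 97.6 on mutant replicate 1, 18.1 on mutant replicate 2 and 18.6 on mutant replicate 3, against 60.4 to 62.7 on the wild type arrays. For comparison, 16 tissue-restricted genes that are not typical of marrow, such as Alb and Ins2, had a median value of 3.92 over the 6 arrays, with a range of 2.20 to 8.79. The top of this range is Cela1, and the range also holds the wild type readings of Hbb-y. Probe sets differ in their affinity as well, so only the median is used, as a rough guide to the low end of the scale. By its 2 brighter probe sets Hbb-y was below that median on mutant replicates 2 and 3 and above it on the other arrays, while its dimmest probe set was below it on wild type replicates 1 and 2 as well. The median of the same list differed from wild type by -0.09, 0.03 and 0.01 on mutant replicates 1, 2 and 3.

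**Figure D1:**
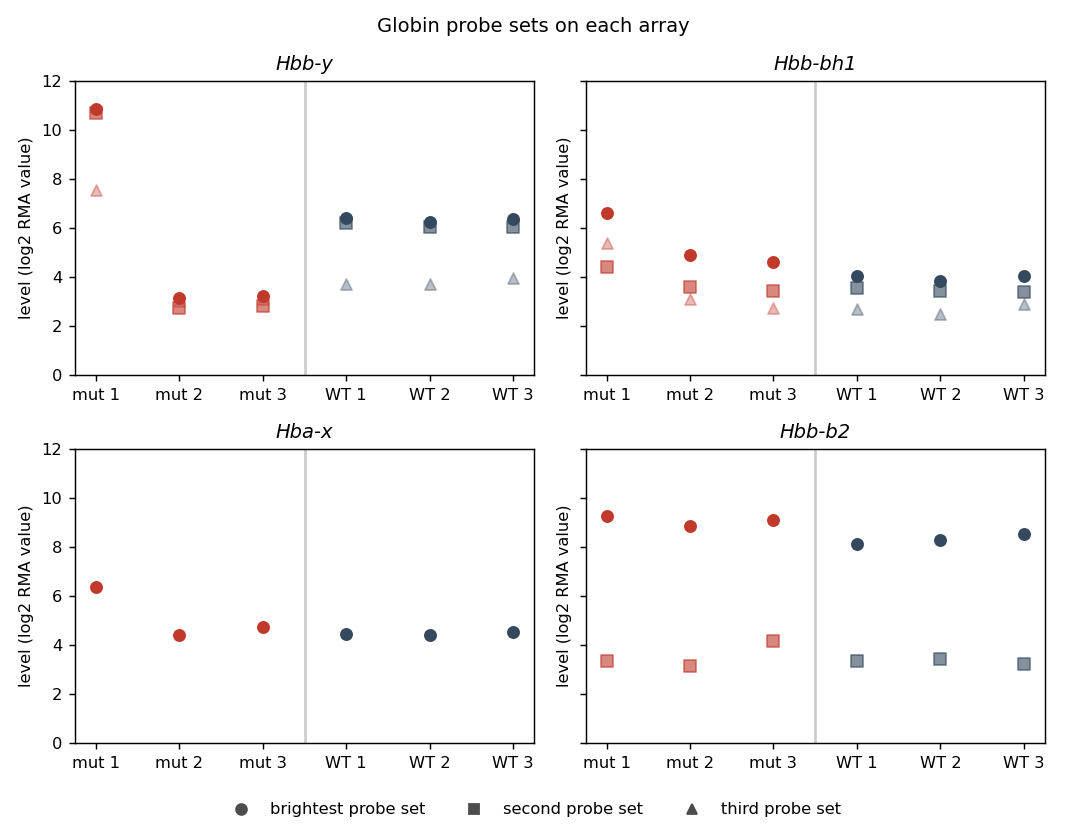
Levels of the 9 globin probe sets (y axis, log2 RMA value) on each of the 3 mutant arrays (red) and 3 wild type arrays (dark blue), with 1 point per probe set and array and marker shapes ordering the probe sets of a gene by brightness. Hbb-y read 10.86 on mutant replicate 1 and 3.16 and 3.24 on the other mutant arrays, on either side of the wild type arrays at 6.26 to 6.42.

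Between the groups, 1 of the 9 globin probe sets was called at an adjusted p under 0.05 in the fit of mutant against wild type arrays over all 22626 probe sets (limma, Benjamini-Hochberg), where 2.33% of all probe sets were called. That probe set belonged to Hbb-b2 and was higher in the mutant, as were 0.941% of all probe sets. For the brightest Hbb-y probe set the mutant minus wild type difference was -0.60 with a 95% confidence interval of -5.00 to 3.80 (adjusted p = 0.90, limma). The second Hbb-y probe set differed by -0.69 and the third by 0.77 (adjusted p = 0.89 and 0.76, limma), so the sign of the group difference was not the same for all probe sets of this gene. Without mutant replicate 1, the same fit gave -3.16 ± 0.097 (log2, SE) for the brightest probe set (adjusted p = 4.6e-05, limma). This is an 8.91-fold lower reading on mutant replicates 2 and 3 than in wild type, with the same limit at the low end of the scale. Because the array was left out for its globin values, this p is no support for a difference between the groups. All 3 Hbb-y probe sets were called lower in that fit, in which 11.2% of all probe sets were called, and 5.27% were called lower. Leaving out mutant replicate 2 instead gave 0.70 for the brightest probe set (adjusted p = 0.90, limma), and leaving out mutant replicate 3 gave 0.65 (adjusted p = 0.87, limma).

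Hbb-bh1, the other embryonic beta-type gene, was also highest on mutant replicate 1. Its brightest probe set read 6.61, 4.90 and 4.64 on mutant replicates 1, 2 and 3, against 4.04, 3.83 and 4.06 on the wild type arrays. All mutant arrays lay above all wild type arrays, which was the case for 11.4% of all probe sets. The difference was 1.41 ± 0.47 (log2, SE), or 2.65-fold, with a confidence interval of 0.32 to 2.50 and an adjusted p of 0.16 by limma, which is not a call. Without mutant replicate 1 the difference was 0.79 ± 0.12, or 1.73-fold, and was called (adjusted p = 0.011, limma), and 5.98% of all probe sets were called higher in that fit.

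The dimmer Hbb-bh1 probe sets gave less separation. The second read 4.43, 3.62 and 3.44 on the mutant arrays, against 3.56, 3.45 and 3.39 on the wild type arrays, and the groups overlapped. The third read 5.41, 3.12 and 2.74 on the mutant arrays, against 2.71, 2.50 and 2.90 on the wild type arrays, and the groups overlapped too. On both, mutant replicate 1 was the highest array and mutant replicate 3 lay among the wild type arrays. Their group differences were 0.36 and 1.06 (adjusted p = 0.47 and 0.42, limma), and 0.064 and 0.23 without mutant replicate 1 (adjusted p = 0.75 and 0.40, limma), so the call of the brightest probe set in that fit was not shared by them.

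Hba-x, the embryonic zeta-type chain gene on the alpha side, read 6.37, 4.41 and 4.76 on mutant replicates 1, 2 and 3 and 4.44, 4.40 and 4.52 on the wild type arrays. Mutant replicate 1 stood above the rest, mutant replicate 2 lay among the wild type arrays and mutant replicate 3 was slightly above them. The group difference was 0.72 ± 0.45 (log2, SE), with a confidence interval of -0.34 to 1.78 (adjusted p = 0.45, limma). It was 0.13 ± 0.12 without mutant replicate 1 (adjusted p = 0.56, limma). Hba-x lies on another chromosome than the beta-type genes and, like them, had its highest reading on mutant replicate 1.

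All 7 embryonic globin probe sets, which read only 3 genes, were highest on mutant replicate 1. The brighter Hbb-b2 probe set was highest there too, which makes 8 of the 9 globin probe sets. The share of all probe sets that were highest on this array was not taken. Of the 7 embryonic probe sets, 6 were at least 2-fold above the wild type mean there, where 1.68% of all probe sets reached that fold. With 1 probe set per gene, Hbb-y had the 2nd highest deviation from wild type on mutant replicate 1 among 12393 genes, at 4.51. Hbb-bh1 followed at rank 6 with 2.64 and Hba-x at rank 24 with 1.91. On mutant replicates 2 and 3 Hbb-y was the 3rd and the 4th lowest of all genes, at -3.20 and -3.11, with its readings near the low end of the scale. Hbb-bh1 deviated there by 0.93 and 0.66 and Hba-x by -0.05 and 0.30. These 2 genes averaged 3.98 and 4.45 in wild type, and whether such levels limit lower readings was not tested. The third Hbb-y probe set averaged 3.79 in wild type and deviated by -0.77 and -0.67 on mutant replicates 2 and 3. These ranks describe single arrays and carry no test.

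**Figure D2:**
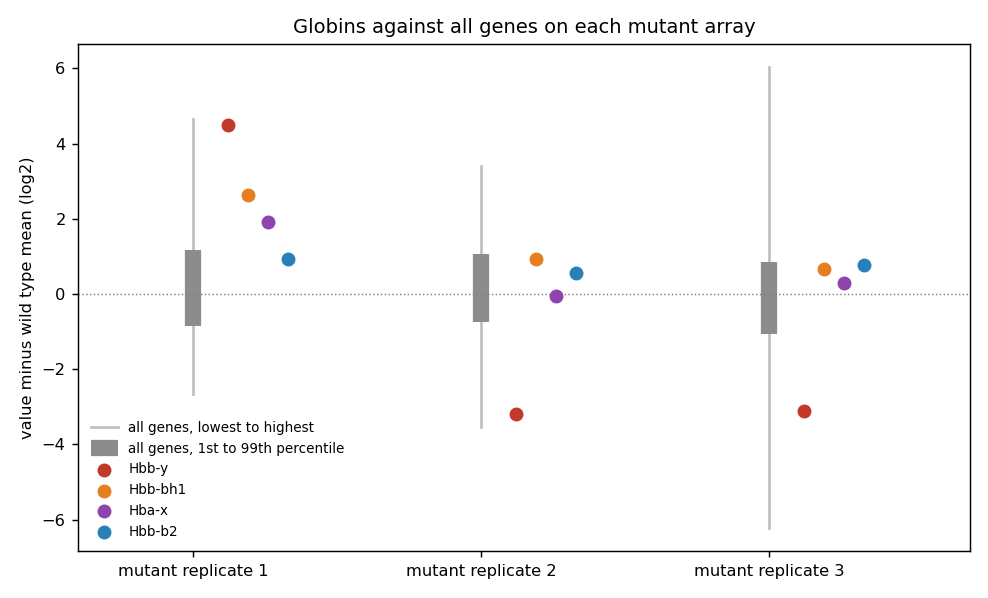
Deviation of each globin gene (coloured points, brightest probe set) from the mean of the 3 wild type arrays (y axis, log2) on each mutant array, beside the range over 12393 genes (thin grey line) and their 1st to 99th percentile (thick grey bar). Hbb-y lies at 4.51 on mutant replicate 1 and at -3.20 and -3.11 on mutant replicates 2 and 3, outside the thick bar on every array.

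Hbb-b2, the adult beta minor globin gene, was higher in the mutant by its brighter probe set. Which adult beta globin genes these FVB/N mice carry is not stated in the labels, so whether they have beta minor is unknown here. That probe set read 9.25, 8.87 and 9.09 on mutant replicates 1, 2 and 3, against 8.13, 8.28 and 8.54 on the wild type arrays. The groups did not overlap, and unlike the embryonic genes the 3 mutant arrays stood close together. The mean level was 9.07 ± 0.19 in mutant and 8.32 ± 0.20 in wild type samples (log2, SD, n = 3 each), a rise of 0.75 ± 0.14 (log2, SE), or 1.68-fold (adjusted p = 0.047, limma). Without mutant replicate 1 the rise was 0.66 ± 0.14 (adjusted p = 0.028, limma). The call was held in 4 of 13 alternative settings, and the adjusted p ran from 0.014 to 0.23 (limma). With the replicate number as a block the adjusted p was 0.10 and 0.495% of all probe sets were called, and with 1 probe set per gene it was 0.075 and 0.331% of genes were called.

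The dimmer Hbb-b2 probe set was designed on the same sequence record. It read 3.34, 3.15 and 4.16 on the mutant arrays, against 3.34, 3.45 and 3.23 on the wild type arrays. Here the groups overlapped, and only mutant replicate 3 stood above the wild type arrays. The difference was 0.21 ± 0.25 (log2, SE, adjusted p = 0.70, limma). Apart from mutant replicate 3, the levels lay below 3.92, the median of the tissue-restricted genes. The brighter probe set carries the suffix for probes shared with other transcripts. How far the brighter probe set reads the near-identical adult beta globin transcripts was not tested, and its change is therefore uncertain as a change of Hbb-b2 itself.

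The adult globins as a whole are covered by 4 probe sets that the annotation assigns to several genes. The probe set shared by Hbb-bt, Hbb-bs, Hbb-b2 and Hbb-b1 read 13.68, 13.66 and 13.56 on the mutant arrays, against 13.77, 13.80 and 13.74 on the wild type arrays. All mutant arrays were below all wild type arrays, as for 14.7% of all probe sets, and the difference was -0.14 ± 0.088 (log2, SE, adjusted p = 0.47, limma). It thus had the opposite sign to the brighter Hbb-b2 probe set. Of the 3 probe sets shared by Hba-a1 and Hba-a2, the 2 brighter differed by -0.02 and -0.01 and the dimmest by -0.49 (adjusted p = 0.95, 0.97 and 0.38, limma). That dimmest probe set read 12.81, 13.89 and 12.89 on the mutant arrays, against 13.69, 13.72 and 13.66 on the wild type arrays, so mutant replicates 1 and 3 were low and mutant replicate 2 high. An adult alpha globin probe set was the brightest of all on every array, at 13.94 to 14.20, and whether readings are compressed near this upper end of the scale was not tested.

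Probe sets naming 1 other globin alone were dim. Hba-a2 read 4.75, 5.55 and 5.21 on the mutant arrays, against 5.07, 5.30 and 5.25 on the wild type arrays, and Hba-a1 read 3.10, 2.87 and 3.12, against 3.06, 3.15 and 3.27. These groups overlapped. Mb, Ngb and Cygb, which encode myoglobin and the globins of nerve and connective tissue cells, had 5 probe sets with values of 3.60 to 5.24. Over these 5 genes, each by its brightest probe set, 0 were called by limma (adjusted p from 0.45), and the median difference was -0.03.

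The embryonic to adult balance was taken on each array as the mean log2 level of Hbb-y, Hbb-bh1 and Hba-x minus the log2 level of Hbb-b2, each by its brightest probe set. Since probe sets differ in their affinity, the balance itself is no ratio of transcripts and only its differences between arrays are read. It was -1.30, -4.71 and -4.88 on mutant replicates 1, 2 and 3, against -3.17, -3.45 and -3.54 on wild type replicates 1, 2 and 3. Relative to the wild type mean, mutant replicates 1, 2 and 3 thus lay at 2.09, -1.33 and -1.49. The mean was -3.63 ± 2.02 in mutant and -3.39 ± 0.20 in wild type samples (SD, n = 3 each), a difference of -0.24 that is small beside the spread of the mutant arrays.

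The balance depended on which embryonic gene was set against Hbb-b2. With Hbb-y alone, mutant replicates 1, 2 and 3 lay at 3.58, -3.75 and -3.89 relative to the wild type mean. With Hbb-bh1 alone they lay at 1.71, 0.37 and -0.11, and with Hba-x alone at 0.98, -0.60 and -0.47. On mutant replicates 2 and 3 Hba-x itself deviated by -0.05 and 0.30, and the brighter Hbb-b2 probe set by 0.55 and 0.77. The negative Hba-x values there thus come mostly from that Hbb-b2 probe set, whose change is uncertain as one of Hbb-b2 itself. Mutant replicate 1 was the highest array in each version. With the 4 shared adult globin probe sets in place of Hbb-b2, a version chosen after seeing the data, the 3 mutant arrays lay at 3.20, -0.77 and -0.41 and the group difference was 0.67. The sign of the group difference was therefore not stable, whereas the order of mutant replicate 1 above, and of mutant replicates 2 and 3 below, the wild type mean was the same for the 3-gene balance against either adult side.

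**Figure D3:**
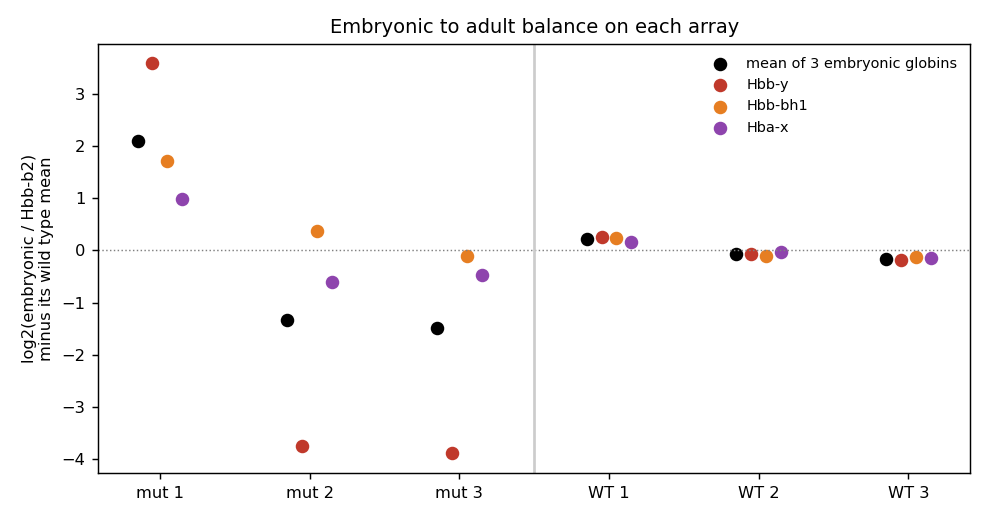
Log2 ratio of embryonic globin to Hbb-b2 on each array, given relative to its mean over the 3 wild type arrays (y axis, log2), for the mean of the 3 embryonic globins (black) and for each of them alone (colours). Mutant replicate 1 lies at 2.09 for the 3-gene mean and mutant replicates 2 and 3 lie at -1.33 and -1.49, while the wild type arrays stay near 0.

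Genes that silence the embryonic globins did not pass the test as measured here. Of 12 repressors of the globin switch, 0 were called by limma, with a median difference of -0.12, beside 188 called (1.52%) and a median of -0.0044 over all 12393 genes with 1 probe set each. Bcl11a, the main repressor of embryonic globin genes in mouse, read 8.54, 8.44 and 8.87 on the mutant arrays, against 8.69, 8.56 and 8.48 on the wild type arrays, a difference of 0.04 ± 0.13 (log2, SE, adjusted p = 0.91, limma). Zbtb7a, a second repressor, read 6.30, 6.24 and 6.26, against 5.85, 5.89 and 5.76, without overlap, and differed by 0.43 ± 0.089 (adjusted p = 0.056, limma). Sox6, which represses Hbb-y with Bcl11a, read 7.40, 8.53 and 8.46 on mutant replicates 1, 2 and 3, against 7.89 to 7.96 in wild type. Sox6 was thus low on the array where Hbb-y was high and high on the arrays where Hbb-y was low. This is not particular to Sox6, as the median of 14 late erythroid maturation genes also lay at -0.43, 0.37 and 0.41 on these arrays. A part of Sox6 in the Hbb-y values was not tested. The group difference of Sox6 was 0.20 ± 0.28 (adjusted p = 0.76, limma).

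Other members of the repressor list showed no common direction. Klf1, which activates adult beta globin and Bcl11a, read 10.74, 11.34 and 11.68 on the mutant arrays, against 11.54 to 11.74 in wild type (difference -0.39, adjusted p = 0.40, limma). Myb, a progenitor factor that holds back embryonic-type globin expression, differed by -0.14 ± 0.12. Nfia differed by -0.86 ± 0.19 (adjusted p = 0.065) and Nfix, also of the nuclear factor I family, by 0.41 ± 0.15. Without mutant replicate 1, 2 members were called higher (Zbtb7a at 0.41 and Sox6 at 0.56) and Nfia was called lower at -1.07, where 10.1% of all genes with 1 probe set each were called. The number of called repressors thus moved with 1 array.

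Chromatin corepressors that work with these factors gave no call. Of 22 measured genes 0 were called by limma and the median difference was -0.02. The lowest p-values were those of Hdac3, a histone deacetylase (-0.41 ± 0.088, log2, SE, adjusted p = 0.063), Mta2, of the NuRD complex (-0.35 ± 0.11), and the DNA methyltransferase gene Dnmt1 (0.28 ± 0.11). Without mutant replicate 1, 1 member was called higher and 2 lower, beside 10.1% of all genes in that fit, so the share is close to that of all genes.

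Activators and looping factors of the globin loci had a median difference of 0.06 over 22 measured genes, with 0 called by limma. The median was -0.06 on mutant replicate 1 and 0.16 and 0.17 on mutant replicates 2 and 3. Gata1, the leading erythroid transcription factor, read 9.07, 9.46 and 9.79 on the mutant arrays, against 9.28 to 9.36 in wild type. The lowest p-values were those of Smarca4, a chromatin remodeller (0.60 ± 0.17), the acetyltransferase gene Crebbp (0.30 ± 0.10) and Usf2, a factor that binds E-boxes (0.35 ± 0.13), and these 3 were called higher without mutant replicate 1 (adjusted p = 0.018, 0.046 and 0.038, limma). These 3 of 22 stand beside 10.1% of all genes called in that fit, a share close to that of all genes.

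The 5 measured genes of the foetal RNA-binding and chromatin programme, which in human cells raises foetal globin, were dim and 0 were called by limma. Their mean level was 3.92, 3.72 and 3.99 on mutant replicates 1, 2 and 3 and 3.73 to 3.96 in wild type. Igf2bp3 differed by 0.14 ± 0.15, Igf2bp1 by 0.05 ± 0.19 and Arid3a by -0.04 ± 0.14. No array stood apart in this list as mutant replicate 1 did for the embryonic globins.

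Of 7 genes listed as neighbours of the alpha globin genes, 0 were called by limma, beside 1.52% of all genes. Where each of the 7 lies in the mouse genome was not checked, and some may lie on other chromosomes. Their median difference was -0.18. Luc7l differed by -0.28 ± 0.11, Polr3k, of RNA polymerase III, by -0.22 ± 0.090 and the DNA repair gene Mpg by -0.35 ± 0.19. On mutant replicate 1 the median of this list was -0.19, while Hba-x stood at 1.91.

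Genes that supply haem and handle globin chains include the carrier gene Tmem14c, which was the 1 called member of 14 measured, beside 1.52% of all genes. Tmem14c read 10.17, 10.78 and 10.91 on the mutant arrays, against 9.65, 9.66 and 9.48 on the wild type arrays, a rise of 1.02 ± 0.19 (log2, SE, adjusted p = 0.044, limma). The count of called members was 3 without mutant replicate 1, where 10.1% of all genes were called. It was 0 with the replicate block, with 1 probe set per gene and without any other single array. The list's median was -0.54 on mutant replicate 1 and 0.11 on each of mutant replicates 2 and 3, so on mutant replicate 1 the median of the haem supply genes was low where the embryonic globin genes were high.

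Genes of early and late erythroid stages also differed between the mutant arrays. Of 14 late erythroid maturation genes, Tent5c, a poly(A) polymerase, rose by 1.08 ± 0.16 and Bpgm, which makes 2,3-bisphosphoglycerate, by 1.15 ± 0.18 (adjusted p = 0.026 and 0.028, limma), beside 1.52% of all genes called. The count of called maturation genes was 7 without mutant replicate 1, where 10.1% of all genes were called. It was 0 with the replicate block, with 1 probe set per gene and without any 1 of the wild type arrays. The list's median was -0.43 on mutant replicate 1 and 0.37 and 0.41 on mutant replicates 2 and 3. Of 12 early progenitor genes 0 were called by limma, with Myc at -0.53 ± 0.14 (adjusted p = 0.093), Kit at -0.24 ± 0.16 and Cdk6 at -0.17 ± 0.12, and their median was 0.21, -0.08 and -0.49 on mutant replicates 1, 2 and 3. The maturation and the progenitor medians thus had opposite signs on each mutant array. In sorted pools, fewer cells of a type and less RNA per cell cannot be told apart.

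Markers of other marrow cells differed between the mutant arrays as well. The mean level of 9 erythroid markers was 9.30, 9.91 and 10.01 on mutant replicates 1, 2 and 3 and 9.83 to 9.90 in wild type, and on mutant replicate 1 0 of the 9 were above the wild type mean. Among the 9, Hba-a1 was read by its dim probe set, at 2.87 to 3.27. Of the bright probe sets that it shares with Hba-a2, 2 were above every wild type array on mutant replicate 1 (14.20 and 13.91) and 1 was below (12.81). The mean of 11 neutrophil markers was 11.24, 10.00 and 9.48, against 10.47 to 10.57, and all 11 were above the wild type mean on mutant replicate 1 and all 11 below it on mutant replicates 2 and 3. As for Hbb-y, mutant replicate 1 was above, and mutant replicates 2 and 3 were below, every wild type array. The mean of 6 mast cell, basophil and eosinophil markers was 7.56, 6.20 and 5.35, against 6.30 to 6.46. The mean of 9 B lineage markers was 5.96, 7.81 and 6.70, against 5.87 to 5.92, so the B lineage genes were high on the arrays where Hbb-y was low. The mean of 8 megakaryocyte markers was 5.90, 5.54 and 5.58, against 5.25 to 5.32, and Vwf was the 1 called gene of this list, beside 1.52% of all genes (1.48 ± 0.19, adjusted p = 0.015, limma). Relative to the wild type mean, Vwf stood at 1.03, 1.69 and 1.71 on mutant replicates 1, 2 and 3. The median of the list stood at only 0.32, 0.12 and 0.07, so its mean on mutant replicates 2 and 3 owes much to Vwf. The mean of 9 macrophage markers was 6.17, 6.15 and 5.62, against 6.24 to 6.38, and that of 4 T and NK cell markers was 5.47, 5.09 and 5.01, against 5.36 to 5.49. The part of these other cell types in the globin values was not tested.

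**Figure D4:**
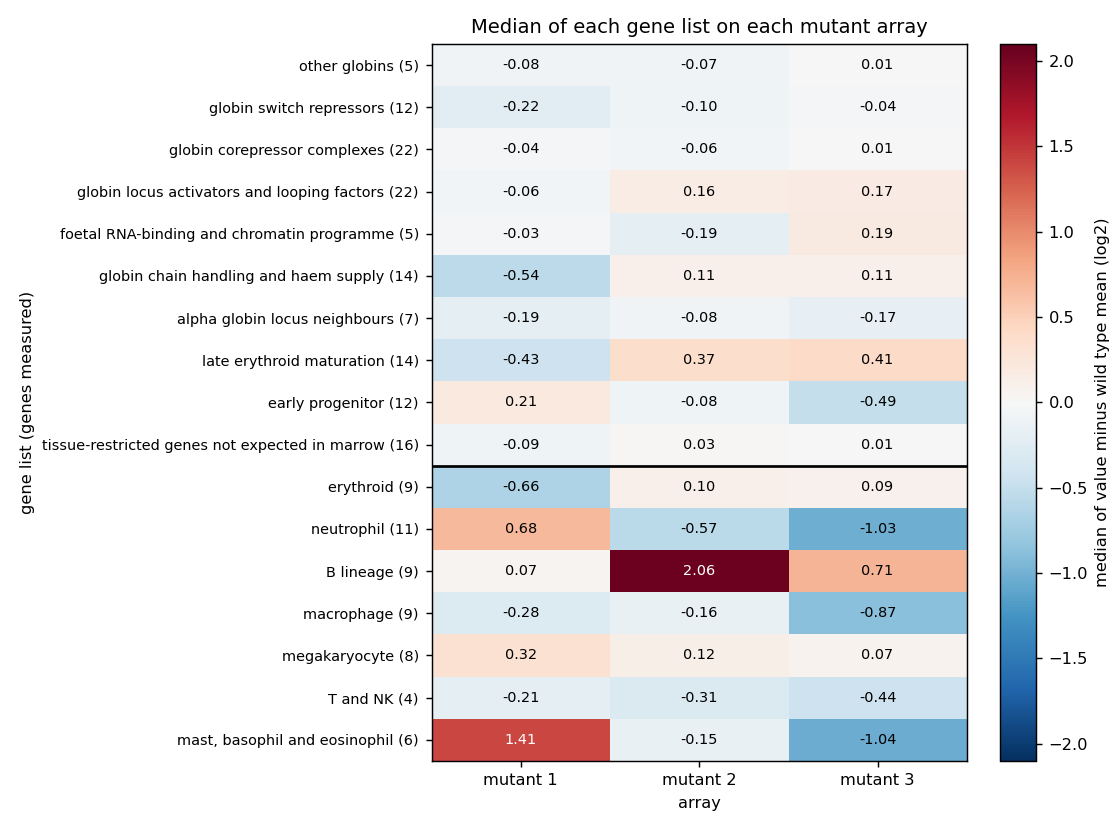
Median deviation from the wild type mean (colour and number, log2) of 10 gene lists (above the black line) and 7 lists of cell type markers (below it) on each of the 3 mutant arrays, with the number of genes measured in parentheses. On mutant replicate 1 the neutrophil list stands at 0.68 and the erythroid list at -0.66, and on mutant replicate 2 the B lineage list stands at 2.06.

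Genes with a pattern like that of each globin were found by the root mean square difference between mean-centred log2 profiles over the 6 arrays, among genes whose range was at least 0.5 times that of the globin. For Hbb-y only 7 genes had so wide a range. The nearest were Cxcl2, a neutrophil chemokine (root mean square difference 1.20), Rgs1, a regulator of G protein signalling (1.23), the cytokine gene Il6 (1.36) and the immunoglobulin gene Igha (2.62). Cxcl2 read 7.41, 2.89 and 2.83 on the mutant arrays, against 4.06, 3.77 and 3.55 on the wild type arrays, so mutant replicate 1 was above, and mutant replicates 2 and 3 were below, every wild type array, with smaller steps than for Hbb-y. Igha read 8.46, 7.58 and 5.44 on the mutant arrays, against 11.16, 11.12 and 11.07, and was thus not high on mutant replicate 1, so that likeness is slight.

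For Hbb-bh1 the nearest of 455 candidates were Chil3, a chitinase-like gene of myeloid cells (0.16), Pde4b, a phosphodiesterase of cyclic AMP (0.21), Bex1 (0.22) and Phlda1 (0.23). Relative to the wild type mean, Chil3 stood at 2.95, 0.93 and 0.50 on mutant replicates 1, 2 and 3, beside 2.64, 0.93 and 0.66 for Hbb-bh1. For Hba-x the nearest of 1197 were the interferon-induced chemokine gene Cxcl10 (0.10), the tubulin gene Tubb6 (0.17), the lipoprotein lipase gene Lpl (0.17) and Nfkbiz, a regulator of NF-kB target genes (0.18). Cxcl10 read 5.28, 3.20 and 3.76 on the mutant arrays, against 3.56, 3.36 and 3.56. For Hbb-b2 the nearest of 4723 were Slc35a2, a nucleotide sugar carrier (0.10), the kinase gene Map3k12 (0.11), Trub2, a pseudouridine synthase (0.11), and Rgcc (0.13). The likeness is a description over 6 arrays that share their processing, and no test was made of it.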

How the data were processed

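Total RNA of 6 samples was labelled with biotin and hybridised to 1 Affymetrix array each. Values were deposited as log2 signals. The authors used GCOS and RMA in Affymetrix Expression Console, per the submitters' processing notes. RMA corrects the background, quantile normalises the arrays and summarises each probe set. Of these tools no version is known here, nor which arrays RMA handled as a set. Tests left aside 64 control probe sets and kept 22626. By the platform annotation of 2016, 20380 probe sets had 1 symbol, 691 had several and 1555 had no symbol. Groups came from the genotype in the sample labels.

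The fit of mutant against wild type used the lmFit and eBayes functions of limma 3.58.1 (R 4.3.3), two-sided and without covariates, over all 22626 probe sets, with Benjamini-Hochberg adjustment and a threshold of 0.05. In gene lists, each of 12393 genes was represented by its brightest probe set, taken by mean level. Lists were described by counts and medians, and single control values by an exact permutation test. The members and lists were chosen with earlier results of these data known. The genes named were all member and other globin probe sets, called list genes (or the 3 with the lowest p), 6 regulators (Bcl11a, Zbtb7a, Klf1, Myb, Sox6 and Gata1), and the 4 genes nearest to each member. Marker lists are given by their means. Same-numbered mutant and wild type arrays did not deviate together (correlation of deviations 0.028 to 0.055), so the replicate number was used as a block only as an alternative. Other alternatives were the variance prior, array weights, a repeated quantile normalisation without controls, median centring, a filter on dim probe sets, 1 probe set per gene and leaving out each array. Promoter sequences came from RefSeq on GRCm38.p6, which held 2 of the 4 members (Hbb-y and Hba-x). The fit was tested on simulated data. Tables and plots were made with pandas 2.3.3, scipy 1.17.1 and matplotlib 3.10.9 under Python 3.11.15. Precision is limited by the small number of arrays.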

Additional observations from a re-analysis of the deposited data

How the results depend on the processing

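Of 106 values of the 9 globin probe sets under alternative settings, 86 kept their sign and their side of the threshold, 9 lost a call, 4 gained one with the same sign and 7 changed sign, of which 1 was also called (the dimmest Hbb-y probe set without mutant replicate 1). Leaving out 1 array at a time moved the difference of the brightest probe set between -3.16 and 0.70 for Hbb-y, between 0.79 and 1.78 for Hbb-bh1, between 0.13 and 1.11 for Hba-x and between 0.66 and 0.86 for Hbb-b2. For the other Hbb-y probe sets, in order of brightness, these ranges were -3.33 to 0.65 and -0.72 to 1.54, and for the dimmer Hbb-b2 probe set -0.10 to 0.41. Array weights called the brightest Hbb-bh1 probe set (1.13, adjusted p = 0.022 by limma). The dimmer Hbb-bh1 probe sets, at 0.21 and 0.71, were not called (adjusted p = 0.39 and 0.20, limma). Array weights moved the Hbb-y probe sets, in order of brightness, to -2.16, -2.33 and -0.12. Hbb-b2 lost its call with the repeated quantile normalisation (0.74, adjusted p = 0.055 by limma), median centring (0.75, adjusted p = 0.055), 1 probe set per gene (0.75, adjusted p = 0.075), the replicate block (0.75, adjusted p = 0.10) and without any single array other than mutant replicate 1. The replicate block changed no other globin call. The filter on dim probe sets left no value for Hbb-bh1, Hba-x, the dimmest Hbb-y or the dimmer Hbb-b2 probe set. The balance differed between the groups by -1.41 to 0.38 when 1 array was left out and by 0.02 with a gene's probe sets averaged. It differed by 0.31 when the dim probe sets naming Hba-a1 or Hba-a2 alone were added to Hbb-b2. The number of probe sets called over the whole table was 528 and became 2667 with array weights, 112 with the replicate block, 41 of 12393 with 1 probe set per gene, and 36 to 2544 without 1 array (2544 without mutant replicate 1, 203 without mutant replicate 2, 826 without mutant replicate 3, 39, 36 and 48 without wild type replicates 1, 2 and 3). Of 129 list counts 30 moved by over 1.5 times. The cause of these changes was not tested.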
